A study of Mus musculus with 6 samples.

Results

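The RNA of 10 integrin subunit genes was followed in mouse embryonic fibroblasts (MEFs) with and without normal Dnmt1: the β subunits Itgb1, Itgb3, Itgb5 and Itgb7 and the α subunits Itga3, Itga4, Itga5, Itga7, Itga11 and Itgav. They were taken as every probe that the platform annotation pairs with one of these symbols, which gave 24 of 45281 probes and 10 of 19057 genes. The genes were chosen by their raw signals and differences between the genotypes on these same arrays, so those differences are described here without a test. RNA was measured on Illumina BeadChips, arrays on which each bead type carries a probe for a part of 1 transcript, in 3 samples of Trp53-/- Dnmt1+/+ MEFs and 3 samples of Trp53-/- Dnmt1-/- MEFs. Dnmt1 encodes the enzyme that copies DNA methylation to the new strand at replication. The Dnmt1-/- cells carry a hypomorphic Dnmt1 allele on both chromosomes, all 6 samples lack Trp53, and the strain background is given as unknown. No source names more than 1 line per genotype, and an effect of the line cannot be told apart from one of the genotype. Nothing states that the replicates were separate cultures, so errors and p-values measure the spread between these arrays, which may be technical.

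Integrins are cell surface receptors made of 1 α and 1 β chain, and the pairing of the chains sets the ligand. In fibroblasts, β1 with α3, α5, α7 or α11 binds laminins, fibronectin or collagens, and αv with β1, β3 or β5 binds fibronectin, vitronectin and latent TGF-β. The β7 chain is known from leukocytes, where it pairs with α4 to bind MAdCAM-1, VCAM-1 and fibronectin in homing to the gut, or with αE to bind E-cadherin on epithelium. A β7 chain needs one of these α chains to reach the cell surface.

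Since Dnmt1 acts on CpG dinucleotides, the DNA before the start site is shown for the subunit with the largest difference (Itgb7), for its partner chain (Itga4) and for the matrix receptor subunit with the largest difference (Itgb5). The 250 bases before the RefSeq start are given 5′ to 3′ on the gene's strand (build GRCm38.p6), in lower case with each CG dinucleotide in capitals, at chr15:102231936-102232185 (minus strand) for Itgb7, chr2:79255176-79255425 (plus strand) for Itga4 and chr16:33829415-33829664 (plus strand) for Itgb5.
Itgb7: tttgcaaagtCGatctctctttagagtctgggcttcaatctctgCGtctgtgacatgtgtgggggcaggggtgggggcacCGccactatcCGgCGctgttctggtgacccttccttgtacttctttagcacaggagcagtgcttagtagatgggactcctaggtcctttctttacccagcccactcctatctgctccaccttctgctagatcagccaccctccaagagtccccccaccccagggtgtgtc
Itga4: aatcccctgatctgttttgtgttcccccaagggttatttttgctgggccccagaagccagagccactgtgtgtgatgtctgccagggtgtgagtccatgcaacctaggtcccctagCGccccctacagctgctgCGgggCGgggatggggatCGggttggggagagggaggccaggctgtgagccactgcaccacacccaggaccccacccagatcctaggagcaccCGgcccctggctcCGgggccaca
Itgb5: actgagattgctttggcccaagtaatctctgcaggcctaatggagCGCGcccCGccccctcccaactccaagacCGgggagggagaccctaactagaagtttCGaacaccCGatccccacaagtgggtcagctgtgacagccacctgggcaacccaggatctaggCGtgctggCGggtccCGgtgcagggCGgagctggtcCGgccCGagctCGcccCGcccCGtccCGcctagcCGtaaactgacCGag
The Itgb7 window held 5 CG dinucleotides, the Itga4 window 6 and the Itgb5 window 18. CG reads the same on both strands, and 92.1% of all 32851 windows of this length hold at least 1, with a median of 6. At most 5 were found in 49.6% of all windows, and at most 18 in 80.3%. The Itgb7 dinucleotides of this window lay at positions -240 to -157 from the start, and bases after the start were not counted for any gene. Windows were matched for 8 of the 10 genes. Of the others, Itga5 had 11, Itga11 12, Itgav 18 and Itgb1 21 CG dinucleotides, and Itga3 had 2 starts with 5 and 22. These counts describe sequence only, as methylation was not measured on these arrays.

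Raw signal averaged 326 to 357 per Dnmt1+/+ array, 397 on Dnmt1-/- replicate 1, and 259 and 217 on Dnmt1-/- replicates 2 and 3, with 14699 to 16499 probes above background (detection p under 0.01) per array. After normalization, which makes the arrays' signal distributions equal, arrays correlated across tested probes at r = 0.956 or more within a genotype and at 0.876 to 0.938 between genotypes. The Dnmt1 probe fell in Dnmt1-/- MEFs by 2.11 on the log2 scale (limma adjusted p = 0.0019), in the direction of the labels, although its place relative to the hypomorphic allele is not known. All further levels are normalized log2 signals of 1 probe and are compared between arrays only, because probes differ in brightness. A gene is represented by its brightest tested probe, a tested probe being one above background on at least 3 arrays. Of the 10 subunits, 8 had a tested probe (12 probes in all), while Itgb3 and Itga4 were above background on no array.

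Itgb7 RNA was near background in Dnmt1+/+ MEFs and bright in Dnmt1-/- MEFs. The 7 tested matrix receptor subunits differed less, by -0.49 to 1.28 on the log2 scale. The single Itgb7 probe (ILMN_1227434) had normalized log2 signals of 4.95, 6.07 and 4.92 on Dnmt1+/+ replicates 1 to 3 and of 10.80, 10.70 and 11.06 on Dnmt1-/- replicates 1 to 3. Its raw signals were 118, 160 and 116 against 2460, 1280 and 1292. The 2 sets of arrays did not overlap on either scale, and the probe was above background on 2 of the 3 Dnmt1+/+ arrays and on all 3 Dnmt1-/- arrays. The difference was 5.54 ± 0.31 (SE, n = 3 and 3), a 46.6-fold higher signal in Dnmt1-/- MEFs. This size holds for the background correction used, and the log2 difference was 3.93 without background correction and 3.77 on the authors' processed values. Among the 8716 genes with a tested probe this difference ranked 11, with 0.115% of genes larger. In RNA from a whole culture, a few cells with much Itgb7 RNA and many cells with little cannot be told apart.

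**Figure D1:**
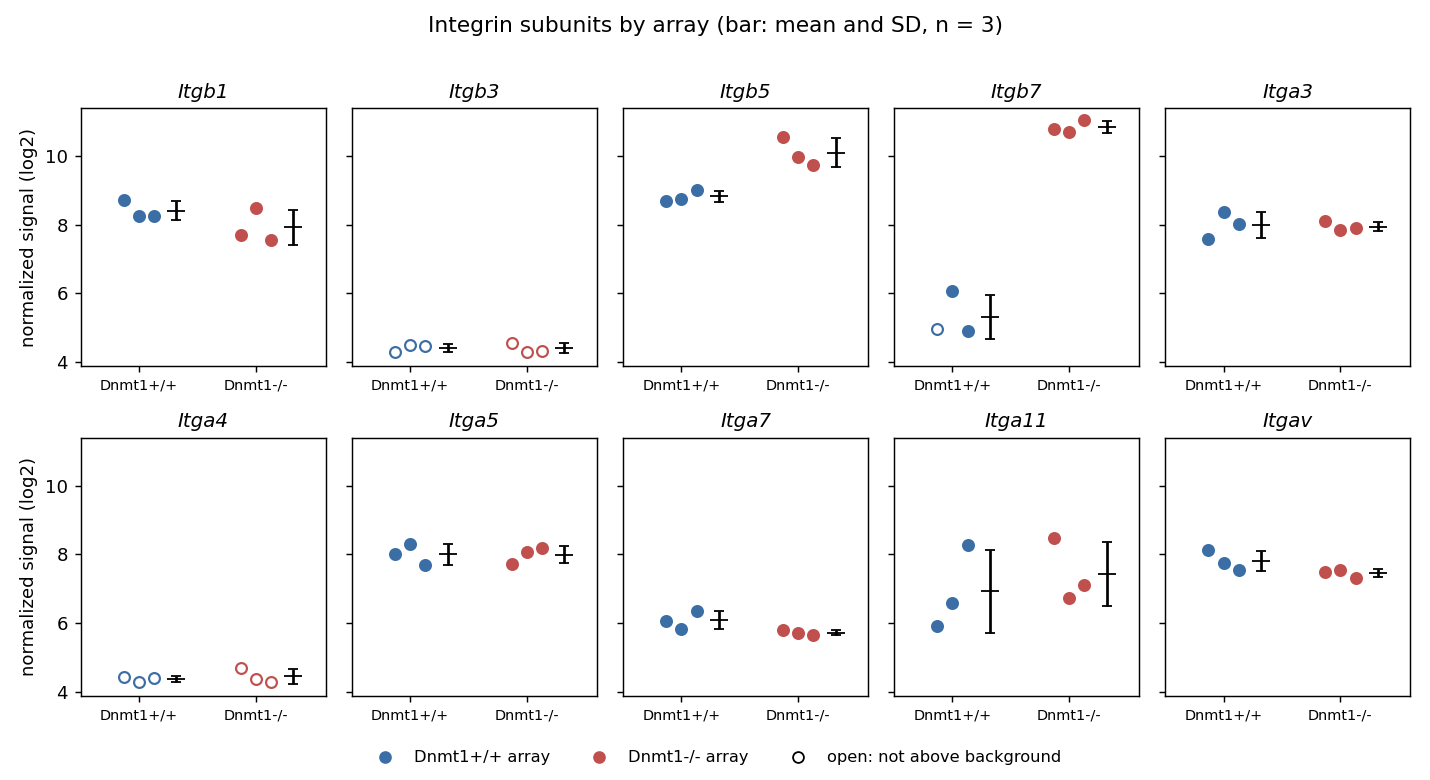
Normalized log2 signal (vertical axis) of the representative probe of each of the 10 integrin subunits on each array, by genotype; filled points were above background, open points were not, and the bar gives the mean and SD of 3 arrays. Itgb7 goes from about background to 10.70 or more, Itgb5 is higher on each Dnmt1-/- array, and Itgb3 and Itga4 stay at background on all 6 arrays.

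RNA of Itga4, which encodes the chain through which β7 is known to bind VCAM-1 and MAdCAM-1, was not detected in either genotype. Protein was not measured on these arrays. None of the 6 Itga4 probes was above background on any array. Their raw signals ran from 87.8 to 122, the lowest detection p was 0.0256, and their differences ran from -0.18 to 0.08 on the log2 scale. The first of them (ILMN_1232028) had log2 signals of 4.42, 4.26 and 4.39 in Dnmt1+/+ and of 4.70, 4.36 and 4.27 in Dnmt1-/- MEFs, which overlap. The genotypes did not overlap at ILMN_1233594 (difference 0.03) and ILMN_2635342 (-0.18), which went in opposite directions. No fold is given for Itga4, as both genotypes were at background. The Itgb7 difference exceeded the Itga4 difference by 5.46 ± 0.47 (SE over arrays). Itgae, which encodes the αE chain, was mostly not above background. Of the 6 Itgae probes, 4 were above background nowhere and 2 on Dnmt1-/- replicate 1 alone, with log2 signals there of 5.25 (ILMN_1217629) and 5.19 (ILMN_2699898), and differences over all 6 probes of -0.08 to 0.46. At ILMN_1217629 the genotypes did not overlap, with at most 4.35 in Dnmt1+/+ and at least 4.53 in Dnmt1-/- MEFs. They overlapped at every other Itgae probe. Low Itga4 or Itgae RNA would not be detectable at this brightness.

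**Figure D2:**
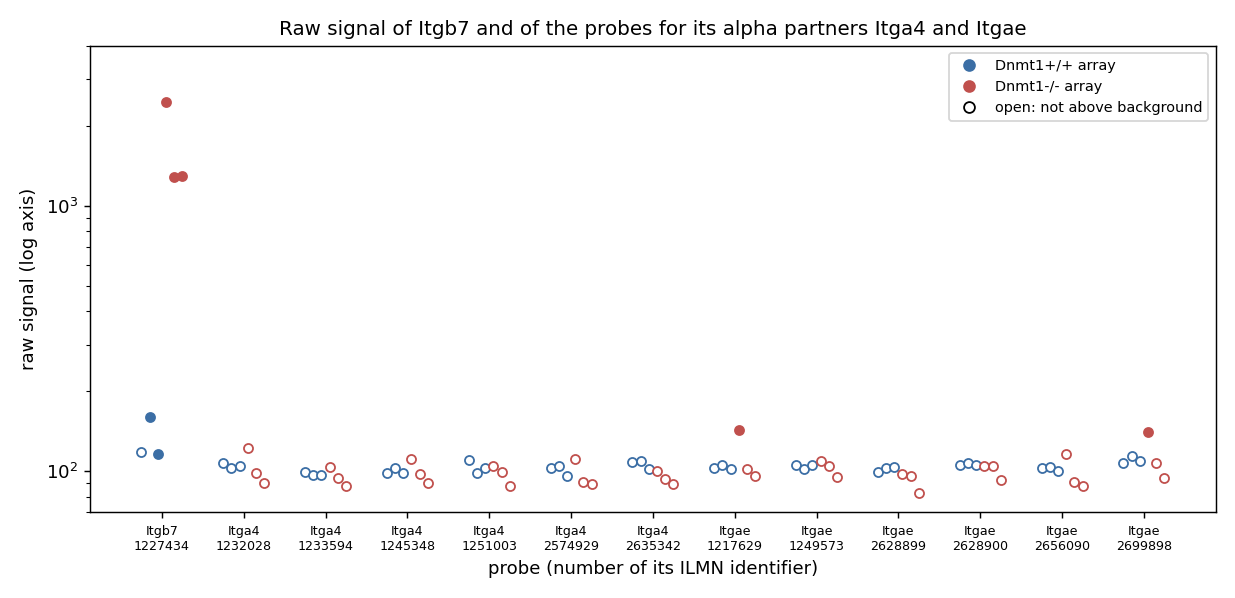
Raw signal (vertical log axis) on each of the 6 arrays for the Itgb7 probe and for the 6 probes each of its α partners Itga4 and Itgae; filled points were above background and open points were not. The Itgb7 probe reaches 1280 or more on the Dnmt1-/- arrays, while no Itga4 probe passes 122 on any array.

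Itgb5, the β chain that pairs with αv to bind vitronectin, was the other subunit higher in Dnmt1-/- MEFs. Its probe (ILMN_2663613) had log2 signals of 8.71, 8.76 and 9.03 on the Dnmt1+/+ arrays and of 10.58, 9.98 and 9.76 on the Dnmt1-/- arrays, with no overlap. The difference was 1.28 ± 0.23 (SE), or 2.42-fold, and 5.16% of tested genes had a larger one. On the raw scale only Dnmt1-/- replicate 1, the brightest array, stood well apart, with 2167 against 560 to 628 in Dnmt1+/+ MEFs, while replicates 2 and 3, the dimmest arrays, had 795 and 557. The size of the Itgb5 difference depended on the scaling between arrays. It was 1.06 without Dnmt1-/- replicate 1, and 0.85 when arrays were scaled to the median of all probes, a scaling that moved the median of all genes to -0.37. The Itgb7 difference was larger than that of Itgb5 by 4.27 ± 0.53 (SE over arrays).

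Itgb1, the β chain shared by most fibroblast matrix receptors, had log2 signals of 8.73, 8.26 and 8.25 in Dnmt1+/+ and of 7.72, 8.50 and 7.56 in Dnmt1-/- MEFs. Of the Dnmt1-/- arrays, replicates 1 and 3 were lower than every Dnmt1+/+ array and replicate 2 was not, and the difference was -0.49 ± 0.27 (SE). The second Itgb1 probe differed by -0.44 ± 0.26. Itgb3, another partner of αv among these genes and the platelet β chain, had raw signals of 92.4 to 118 and was above background nowhere.

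Of the α chains, Itga5, which forms the fibronectin receptor with β1, was level between the genotypes. Its log2 signals were 8.02, 8.30 and 7.69 in Dnmt1+/+ and 7.72, 8.08 and 8.19 in Dnmt1-/- MEFs, a difference of -0.01 ± 0.21 (SE) that overlapped fully, with -0.08 ± 0.22 at a second probe. Itga3, a laminin receptor chain, had 7.60, 8.37 and 8.02 against 8.11, 7.85 and 7.90. Its difference was -0.05 ± 0.22 and its Dnmt1-/- values all lay within the Dnmt1+/+ range.

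Itgav, the chain shared by the vitronectin receptors, had log2 signals of 8.12, 7.77 and 7.56 in Dnmt1+/+ and of 7.48, 7.55 and 7.33 in Dnmt1-/- MEFs, so that the groups just failed to overlap, with a difference of -0.36 ± 0.19 (SE). Its second tested probe overlapped (-0.17 ± 0.29) and its 3 other probes were above background on at most 1 array. Itga7, a laminin receptor chain best known from muscle, had 6.07, 5.83 and 6.35 against 5.79, 5.70 and 5.66, which also did not overlap, with a difference of -0.37 ± 0.18. Its second probe was above background on no array.

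Itga11, a collagen receptor chain of fibroblasts, was the most variable of the subunits within a genotype. Its log2 signals were 5.92, 6.59 and 8.27 in Dnmt1+/+ (SD 1.21) and 8.49, 6.73 and 7.10 in Dnmt1-/- MEFs (SD 0.93). Dnmt1+/+ replicate 3 and Dnmt1-/- replicate 1 were high and the other 4 arrays lower, and a second tested probe was also highest on these arrays, with 6.47 on each. The difference of 0.51 ± 0.63 (SE) moved from -0.02 without Dnmt1-/- replicate 1 to 1.18 without Dnmt1+/+ replicate 3.

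Among all tested genes, 17.4% were called in either direction (limma, Benjamini-Hochberg adjusted p under 0.05), 9.61% higher and 7.82% lower in Dnmt1-/- MEFs. Of the 8 tested integrin subunits, 2 (Itgb7 and Itgb5) were called higher, 0 lower and 6 were not called. The genotypes did not overlap for 4 of the 8 subunits, against 40.3% of all tested genes. These counts carry no test, because the subunits were chosen with this contrast known. The median difference of the 8 was -0.03, against -0.05 over all tested genes. The 7 tested subunits other than Itgb7, all chains of matrix receptors, had a median difference of -0.05 and ran from -0.49 for Itgb1 to 1.28 for Itgb5, so the Itgb7 difference exceeded their median by 5.59.

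Integrin subunits outside these 10 were mostly not above background, which does not show that their RNA was absent. Of 17 further subunits, 16 had a probe and 12 of these were above background on no array, among them Itgb2, Itgal, Itgam, Itgax and Itgad, which form the β2 integrins of leukocytes, the αv partners Itgb6 and Itgb8, and Itga1, Itga2, Itga8, Itga9 and Itgb2l. Only Itga6 and Itgb4, the chains of the laminin receptor of epithelial hemidesmosomes, were tested, and 0 were called at the gene level by limma (1, Itga6, at an unadjusted p under 0.05). Itga6 differed by -0.52 ± 0.22 (SE, limma adjusted p = 0.15) at its brightest probe. All 3 of its probes were lower in Dnmt1-/- MEFs, 1 of them past the threshold (ILMN_1236600, -0.88, limma adjusted p = 0.029). That probe was above background only in Dnmt1+/+ MEFs, where it was higher, so its adjusted p-value is a description. Itgb4 differed by 0.59 ± 0.34 (SE, limma adjusted p = 0.27). Itga2b, the platelet α chain, was above background on at most 2 arrays of a genotype at either of its 2 probes.

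**Figure D3:**
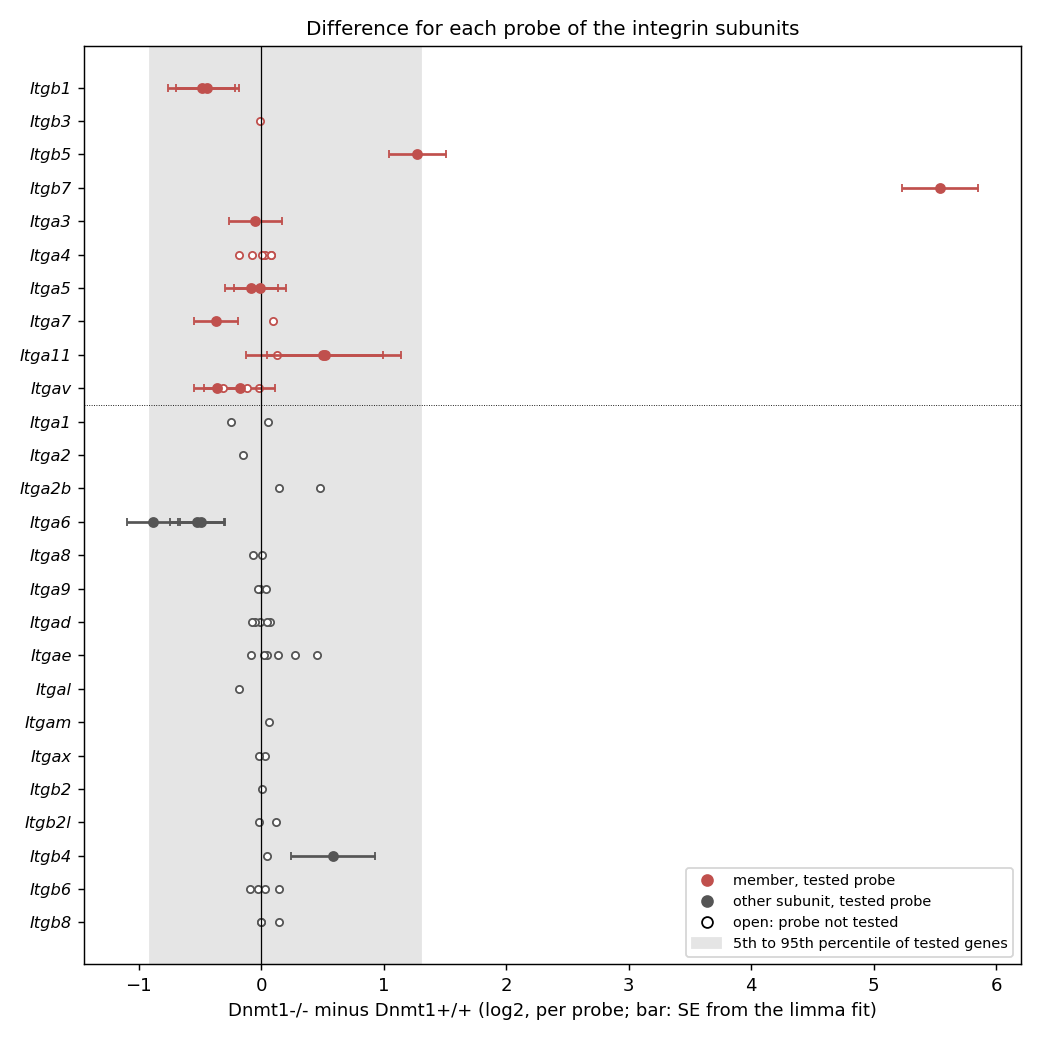
Dnmt1-/- minus Dnmt1+/+ log2 difference (horizontal axis) for every probe of the 10 integrin subunits (red, above the dotted line) and of the 16 other subunits with a probe (grey); filled points are tested probes with the SE of the limma fit, open points are probes that were not tested, and the band spans the middle of all tested genes (5th to 95th percentile). Itgb7 at 5.54 is the one probe far outside the band, and Itgb5 at 1.28 lies near its upper edge.

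Genes of matrix proteins that these receptors bind were read in the same fit. Of 28 listed matrix ligands, 16 were tested, of which 2 rose, 3 fell and 11 were not called, with a median difference of -0.11. Among all tested genes 9.61% were called higher and 7.82% lower, with a median difference of -0.05. These shares also stand beside the counts of the lists below. All of the lists were chosen with earlier results of these data known, so their counts and adjusted p-values are not an independent test. Tnc, tenascin C, fell 11.2-fold (limma adjusted p = 0.0012). Fn1, the fibronectin bound by α5β1 and αv integrins, fell 4.20-fold (limma adjusted p = 0.0041), and each of its 4 tested probes fell. Thbs1, thrombospondin 1, rose 2.08-fold (limma adjusted p = 0.029). Lama5, a laminin α chain and ligand of α3β1, was above background only in Dnmt1-/- MEFs, at least 2.05-fold higher (limma adjusted p = 0.0018). The remaining call, Edil3, an αv ligand named after its values were seen, was above background only in Dnmt1+/+ MEFs, at least 1.17-fold lower (limma adjusted p = 0.0056). Folds written as "at least" are taken against the lowest signal above background on each array of the undetected group. Genes with such a fold, here and below, passed the detection filter only through the genotype where they were higher. Their adjusted p-values are therefore a description and lend no support to the difference.

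The 4 tested genes of latent TGF-β, which αv integrins bind and activate, gave 1 rise and 1 fall. Tgfb1 rose 1.59-fold (limma adjusted p = 0.043) and Ltbp1, which tethers the latent complex to the matrix, fell 1.64-fold (limma adjusted p = 0.035). Tgfb3 differed by -0.13 and Ltbp3 by 0.12, and neither passed the test (limma adjusted p = 0.72 and 0.73). Of the counter-receptors of α4 and β7 integrins, Vcam1 was expressed in both genotypes with a difference of 0.06 ± 0.28 (SE, limma adjusted p = 0.90). Madcam1 and Cdh1, the ligands of α4β7 and αEβ7, were above background on no array, and Jam2 was so on 1 Dnmt1-/- array.

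Among 22 tested adaptors that couple integrin tails to actin, 3 rose, 0 fell (2 were lower at an unadjusted p under 0.05 in limma) and 19 were not called, with a median difference of -0.12. The shares over all tested genes were 9.61% higher and 7.82% lower. Tns1, a tensin that binds β tails and actin, rose 2.85-fold (limma adjusted p = 0.016). Tln2, one of the talins that switch integrins to the active state, rose 2.51-fold (limma adjusted p = 0.0083). It was above background on 2 of 3 Dnmt1+/+ arrays and met the filter of 3 arrays only with Dnmt1-/- arrays, where it was higher. Its adjusted p-value is therefore also a description and lends no support to the difference. Tns3 rose 1.90-fold (limma adjusted p = 0.017) at its brightest probe, while its other probes, at 0.57 and 0.38, did not pass. The widely expressed talin Tln1 differed by -0.40 (limma adjusted p = 0.24). Of 7 tested integrin inhibitors and trafficking factors 0 were called by limma, with 1 (Cib1, 0.68 on the log2 scale) at an unadjusted p under 0.05. Of 9 tested tetraspanins and other lateral partners 3 rose and 0 fell (0 also at an unadjusted p under 0.05). Their median was 0.80, against -0.05 over all tested genes, and no test of the list was made. Cd47, the integrin-associated protein, rose 2.17-fold (limma adjusted p = 0.017) and the tetraspanin Cd9 rose 2.00-fold (limma adjusted p = 0.036). Cd53, a tetraspanin of leukocytes, was above background only in Dnmt1-/- MEFs, at least 1.30-fold higher (limma adjusted p = 0.018).

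**Figure D4:**
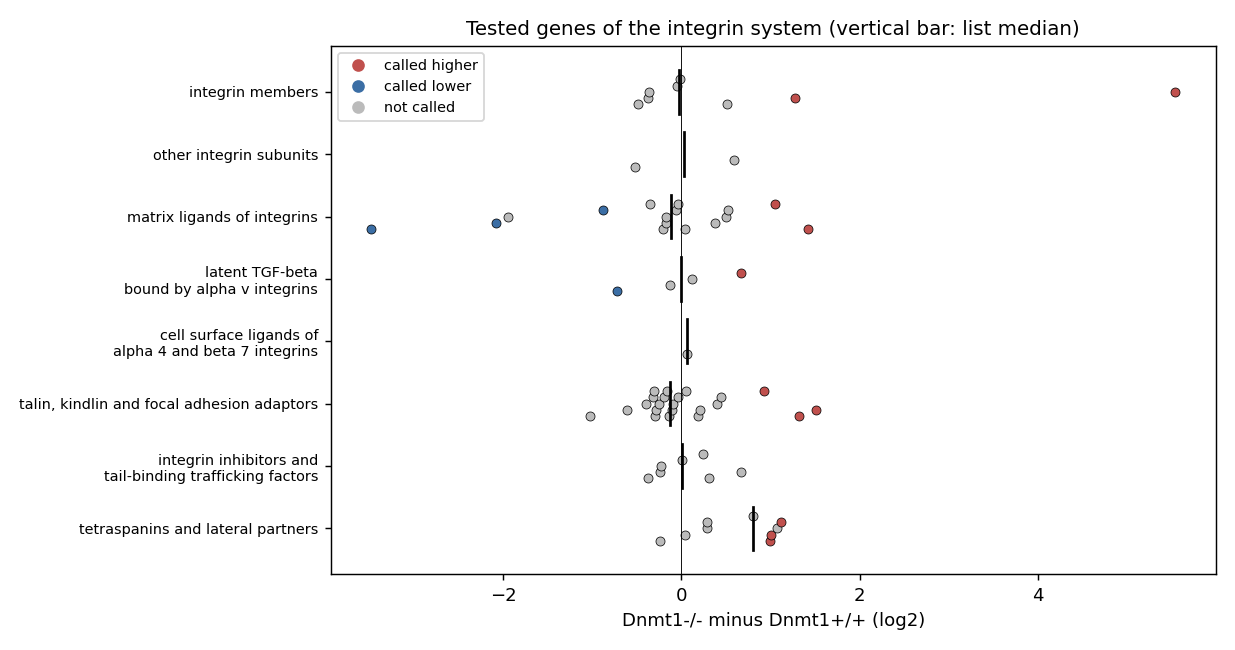
Dnmt1-/- minus Dnmt1+/+ log2 difference (horizontal axis) of each tested gene in 8 lists of the integrin system, with list medians as vertical bars; red points were called higher, blue points called lower and grey points not called. Itgb7 at 5.54 lies farthest to the right, and Tnc and Fn1 among the matrix ligands lie farthest to the left.

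Because β7 is a leukocyte chain, leukocyte markers were measured beside it. Of 20 markers with a probe, 18 were above background on no array, Ptprc, Cd3e, Cd79b and Spi1 among them. None was above background in Dnmt1+/+ MEFs, and the others, Csf1r (on 3 Dnmt1-/- arrays, difference 0.41, limma adjusted p = 0.12) and Was (on 2 Dnmt1-/- arrays), were low. Summed over the 20, the linear normalized signal was 427.51 to 434.99 on Dnmt1+/+ and 435.15 to 455.23 on Dnmt1-/- arrays. These ranges narrowly failed to overlap, and the part of this sum in the Itgb7 difference was not tested. Of the leukocyte homing molecules only Cd44, a hyaluronan receptor that fibroblasts also express, was tested, and it differed by -0.69 (limma adjusted p = 0.059). Of 12 fibroblast markers 11 were tested, with sums of 20461 to 26182 and of 19609 to 25190. Of these S100a4 rose 2.98-fold (limma adjusted p = 0.030). Thy1 was above background only in Dnmt1+/+ MEFs, at least 2.11-fold lower in Dnmt1-/- MEFs (limma adjusted p = 0.0032). Of the epithelial markers Krt14, above background only in Dnmt1-/- MEFs, was at least 1.37-fold higher (limma adjusted p = 0.013). Cldn7 differed by 0.13 (limma adjusted p = 0.70). Krt8, named after its values were seen, was above background on 2 Dnmt1-/- arrays and on 0 Dnmt1+/+ arrays. The summed signal of the 9 epithelial markers was 186 to 196 on Dnmt1+/+ and 215 to 252 on Dnmt1-/- arrays, without overlap, and its part in the Itgb7 difference was not tested. No muscle, endothelial or platelet marker passed the detection filter.

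The genes next to Itgb7 on chromosome 15 were read in the same fit. Of the 5 genes on each side in the RefSeq gene order, 7 had a tested probe, of which 3 rose and 0 fell, with a median of 0.64, against 12.3% higher and 8% lower among the 375 tested genes of the chromosome, whose median was 0.05. Igfbp6, which encodes an IGF-binding protein, rose 4.86-fold (limma adjusted p = 0.0048). Rarg, the retinoic acid receptor γ and an immediate neighbour, rose 1.92-fold (limma adjusted p = 0.034), and a second probe also rose (limma adjusted p = 0.049). Mfsd5 rose 1.56-fold (limma adjusted p = 0.023). Csad (0.96), Pfdn5 (0.47), Spryd3 (0.23) and Espl1 (-0.24) did not pass the test. The Itgb7 difference was larger than that of each neighbour measured, and no test of the group of neighbours was made.

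**Figure D5:**
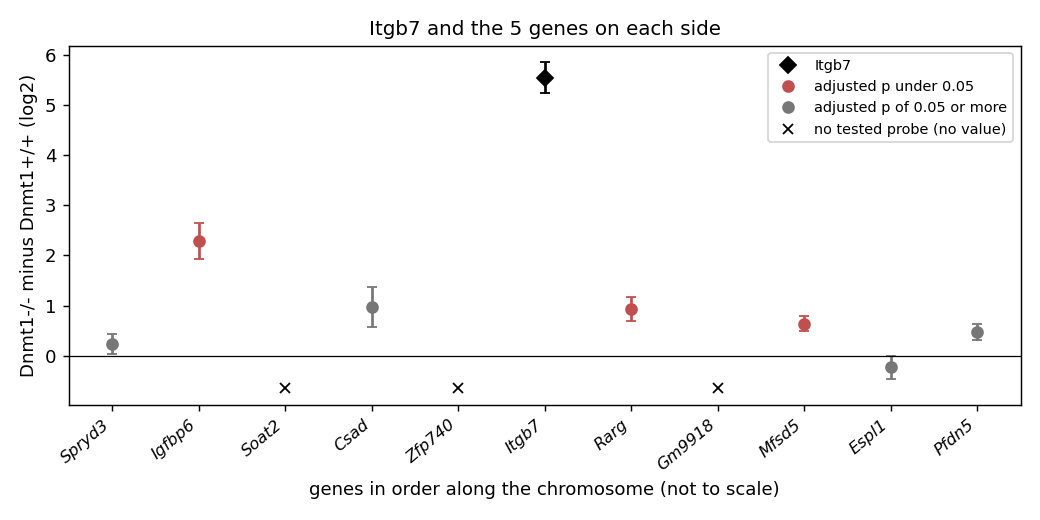
Dnmt1-/- minus Dnmt1+/+ log2 difference with its SE (vertical axis) for Itgb7 (diamond) and the 5 genes on each side in gene order (horizontal axis, not to scale); red points passed the test, grey points did not, and crosses at the foot mark genes with no tested probe. Igfbp6, Rarg and Mfsd5 passed, at 2.28, 0.94 and 0.64, and Itgb7 stands at 5.54.

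The tested genes whose course over the 6 arrays was most like that of Itgb7 were Nckap1l, Wnt10a, 8030474K03Rik, Fmr1nb and Tex13b, at root mean square distances of 0.417, 0.419, 0.424, 0.490 and 0.533 between log2 deviations from each gene's own mean over the 6 arrays. Each of these 5 genes was above background on no Dnmt1+/+ array and on all 3 Dnmt1-/- arrays, whereas Itgb7 was above background on 2 Dnmt1+/+ arrays. The nearest, Nckap1l, was at least 30.3-fold higher in Dnmt1-/- MEFs and was not among the leukocyte markers read above. Those markers are a chosen list and do not cover every leukocyte gene. The 5 genes were chosen for this likeness, so it carries no test.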

How the data were processed

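The authors deposited raw probe intensity on a linear scale, detection p-values, and processed intensity values made with lumi (version not given in the sources used here) by background subtraction, variance stabilization and robust spline normalization. The deposited raw intensities were put through neqc (limma 3.58.1, R 4.3.3: normexp background correction from the detection p-values, offset 16, quantile normalization), which turned the deposited values into log2 signals. Probes with detection p under 0.01 on at least 3 of 6 arrays (15795 probes, 8716 genes) were tested with lmFit and eBayes, two-sided, on genotype alone, with p-values adjusted over all tested probes by Benjamini-Hochberg. Symbols came from the platform annotation (34885 probes with 1 symbol, 18 with several, 10378 with none), and start-site windows and gene order from RefSeq. The steps were tested on simulated data. The integrin subunits and all gene lists were chosen with earlier results of these data known. Named were all subunits with a probe, up to 4 called genes of largest difference per list, all tested genes of lists with 6 or fewer tested, called genes flanking Itgb7 and the 5 genes most like it. Alternatives changed the background correction, scaling, offset, detection filter, probe choice, replicate block and arrays used, and used the processed table. Tables were read with Python 3.11.15 and pandas 2.3.3, and figures drawn with matplotlib 3.10.9.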

Additional observations from a re-analysis of the deposited data

How the results depend on the processing

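The direction of the Itgb7 and Itgb5 differences was the same under every alternative run, which is a description, as both were chosen on these arrays. Other differences changed sign in some of them, between -0.39 and 0.14 for Itga3 and -0.36 and 0.14 for Itga5. That of Itga11 ran from -0.02 to 1.58, the latter with Dnmt1-/- replicates 2 and 3 both left out. Those of Itga4 and Itgb3, both at background, ran from -0.04 to 0.43 and from -0.08 to 0.31. The size of the Itgb7 difference depended on how background was treated. It was 3.93 without background correction, 3.77 with the authors' processed values and 4.65 with an offset of 50, and 5.30 to 5.88 with 1 array left out. Under the same 3 settings the Itgb7 minus Itga4 difference was 3.91, 3.74 and 4.62, and Itgb7 minus the median of the matrix receptor subunits 3.97, 3.82 and 4.70. With 1 array left out these were 5.19 to 5.85 and 5.50 to 5.74. Scaling to the median of all probes called 1 subunit higher (Itgb7), 286 genes higher and 397 lower. Scaling to the median of the tested probes, chosen after seeing the data, called 776 and 551 and both subunits. Requiring detection on all 6 arrays left Itgb7 untested, with 1 subunit (Itgb5) called higher and 476 genes higher and 399 lower of 7405 tested. Without a filter 554 genes were called higher and 519 lower of 19057 tested. Leaving out 1 array gave 458 to 848 genes higher and 282 to 675 lower, with 0 to 1 other subunit lower; this was Itga6, also 1 when probes were averaged. With Dnmt1-/- replicates 2 and 3 both left out, also chosen after seeing the data and with the lone array assumed to vary like the others, the differences were 5.58 for Itgb7 and 1.74 for Itgb5.

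Deviations of same-numbered arrays from their genotype means correlated at -0.23, 0.33 and -0.14 for replicates 1 to 3. With 3 arrays per genotype these correlations cannot show whether the samples were paired by number. With the replicate block 609 genes were called higher and 399 lower, against 838 and 682 without it. Signal near background limits Itga4, Itgae and Itgb3, for which low RNA would be missed, and 3 arrays per genotype limit the precision of the rest.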
